A study of Homo sapiens with 8 samples.

Results

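The comparison described here set against each other 2 lines of MDA-MB-231 cells that carry different truncations of SUN2, and asked which genes and pathways tell them apart. MDA-MB-231 is an established human triple-negative breast cancer line of mesenchymal appearance. Per the series design, the line labelled LBD has a SUN2 without residues 1 to 139 (139 residues), the lamin binding domain, and the line labelled Kashlid has a SUN2 without residues 569 to 585 (17 residues), made to remove the hold on Nesprin-2G. The label LBD thus names the domain that is missing, not one that is kept. The members were the libraries with these labels, 4 of the 8 in the series: 2 of LBD and 2 of Kashlid. The other groups, unmodified cells (WT, 2 libraries) and cells with SUN2 knocked out (SUN2KO, 2 libraries), entered the estimate of the spread between replicates and serve as reference levels. All were cultured in the same medium, with 10000000 cells per sample. The labels give neither the background in which the truncated proteins were made, nor how they were introduced, nor whether a line is 1 clone or has been compared with a second clone. Nor do they state that the replicates were separate cultures. P-values here therefore rest on a spread between libraries that may be technical.

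SUN2 sits in the inner nuclear membrane. Its amino-terminal part faces the nucleoplasm and binds the lamins, the filaments that line the inside of the nuclear envelope. Its carboxy-terminal SUN domain lies in the space between the nuclear membranes and holds the KASH peptide of the nesprins, which cross the outer membrane and bind actin, microtubules or intermediate filaments. The KASH lid is a loop of the SUN domain that closes over that peptide. SUN proteins and nesprins together form the LINC complex, the mechanical link between cytoskeleton and nucleus. Both truncations therefore touch the same bridge from opposite ends, one on the lamin side and one on the nesprin side.

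Of 25369 genes in the table, 14016 passed a filter on low counts and were tested. A gene is called here when its Benjamini-Hochberg adjusted p over all tested genes was under 0.05 in edgeR's quasi-likelihood test, which models counts with a spread shared by the 4 groups. The test called 408 genes, 2.91% of those tested: 229 were higher in LBD (1.63%) and 179 lower (1.28%). Differences were small. The median absolute log2 change of the called genes was 0.30, and 16 genes passed a 2-fold change, 8 in each direction. Of these 16, 14 had a mean below 5 CPM (counts scaled to the total of the library times its scaling factor) over the 4 libraries. All 408 called genes had both LBD libraries on one side of both Kashlid libraries, as did 43.8% of all tested genes. In 398 of the 408 the difference between the group means exceeded the wider of the gaps between replicates, which held for 30.7% of all tested genes, and in 276 it exceeded that gap more than 2 times, which held for 12.2%. The plot of log2 change against level shows where these genes lie.

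**Figure D1:**
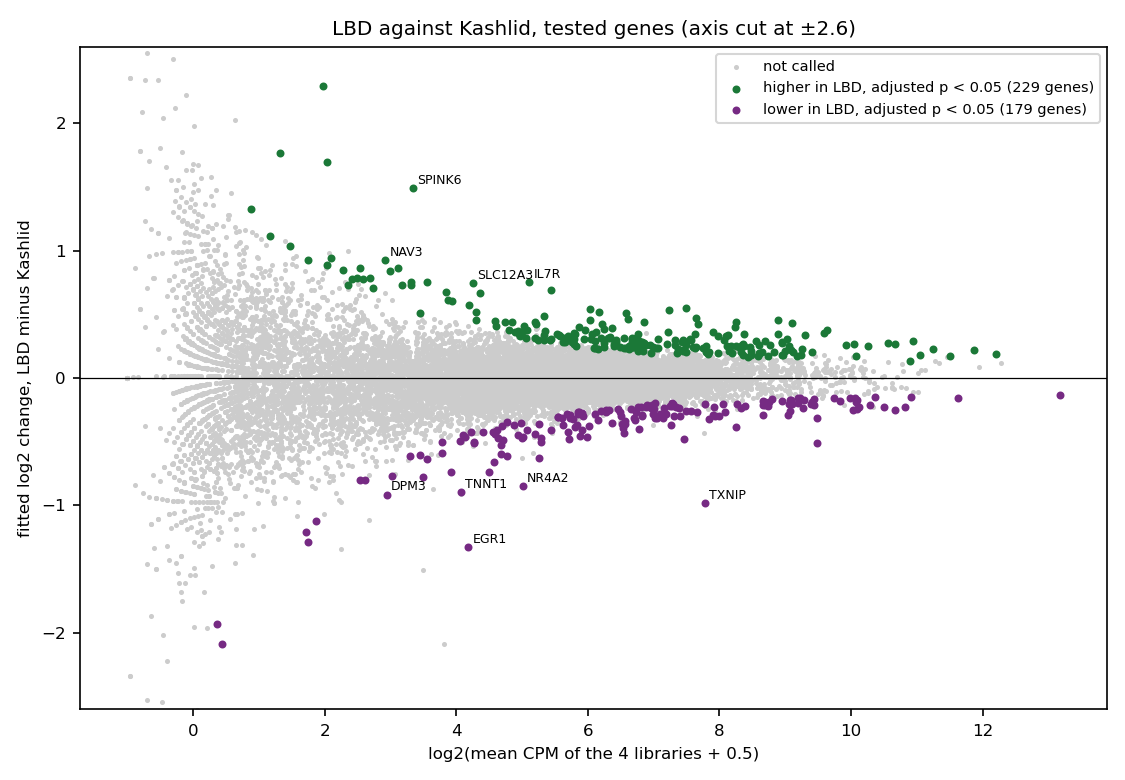
Fitted log2 change of LBD over Kashlid (vertical axis) against the log2 of the mean CPM over the 4 libraries plus 0.5 (horizontal axis), 1 point per tested gene, with an axis limited to ±2.6. Green points are the 229 genes called higher in LBD and purple points the 179 called lower, and most of them lie within 0.5 of 0 while genes with larger changes, such as SPINK6 and EGR1, are mostly at low levels.

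The 4 libraries had between 16570099 and 17146119 counts. The replicates of Kashlid differed more than those of the other groups: over 10866 genes of at least 5 CPM, the root mean square log2 difference was 0.187 between the Kashlid libraries, 0.158 between the LBD libraries, 0.136 in SUN2KO and 0.134 in WT. Between LBD and Kashlid libraries it ran from 0.176 to 0.206. LBD replicate 2 and Kashlid replicate 2, at 0.176, were therefore closer to each other than the Kashlid replicates were. Counts of the called genes depended on single libraries. The test called 129 genes without LBD replicate 1, 138 without LBD replicate 2, 287 without Kashlid replicate 1 and 839 without Kashlid replicate 2, and 58 of the 408 genes were called in all 4 of these fits. No called gene took the opposite sign and passed in any of them. The marker genes of MDA-MB-231 were present in every library: all 17 on the list had counts, with a summed level of 2930 to 2970 CPM in LBD and 2630 to 2730 in Kashlid. Among 17 markers of luminal breast cells, the hormone receptor genes were near 0 (PGR at 0 counts in all 4 libraries, ESR1 at 6 to 12), but others were present, such as FOXA1 at 273 to 341 counts and ERBB2 at 866 to 936. The summed level of that list was 2180 to 2190 CPM in LBD and 1820 to 2020 in Kashlid, with 2 and 3 of its genes at 0 in both libraries of the line. The summed level of HEK293-type markers, a list for another cell type, was 87.3 to 92.4 CPM in LBD and 91.8 to 94.8 in Kashlid.

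SUN2 itself (chr22:39130719-39151467 on hg19) did not separate the lines. It stood at 32.5 and 34.6 CPM in LBD and 37.2 and 35.4 in Kashlid, with raw counts of 562 and 579 against 643 and 603. Both lines lay above SUN2KO (25.6 and 30.3) and far below WT (83.7 and 81.9). The change of LBD over Kashlid was -0.11 ± 0.09 (log2 change ± SE, adjusted p = 0.555, edgeR's quasi-likelihood test). Counts are summed over the whole gene and do not tell truncated from full transcripts, so they neither check the truncations nor measure the protein. Among the partners of SUN2, SUN1, the other SUN protein of these cells, was at 111 and 114 CPM in LBD and 112 and 114 in Kashlid. Of the nesprins, SYNE2, which encodes Nesprin-2, was the one called: 122 and 111 CPM in LBD and 137 and 134 in Kashlid, a change of -0.21 ± 0.06 (adjusted p = 0.0478, edgeR). Its groups did not overlap, but the call is at the threshold, and the 4 truncation libraries alone did not give it (adjusted p = 0.151, edgeR). It was lost with median-ratio factors (adjusted p = 0.0523) and without LBD replicate 1 (0.0602), LBD replicate 2 (0.346) or Kashlid replicate 1 (0.13). The interval listed for SYNE2 is chr14:64680859-64693167, and which isoforms its count covers is not given in the sources used here. SYNE1 (-0.00 ± 0.10), SYNE3 (-0.23 ± 0.22) and SYNE4 (0.08 ± 0.54, under 1 CPM in each library) were not called. Nor were the lamin genes: LMNA changed by 0.15 ± 0.05 (adjusted p = 0.105), LMNB1 by -0.02 ± 0.05 and LMNB2 by -0.01 ± 0.05. The whole list of LINC, lamin and nuclear membrane genes had 2 higher and 1 lower of 27, at a median of 0.03. The share called was 11.1%, against 2.91% of all tested genes. The higher ones were TMEM43, a partner of emerin and the lamins (194 and 189 CPM against 162 and 169.8, 0.21 ± 0.05, adjusted p = 0.0311, and 0.192, 0.11 and 0.131 without LBD replicate 1, LBD replicate 2 and Kashlid replicate 1), and PLEC, the cytolinker plectin that ties intermediate filaments to the nesprins (1093 and 1202 against 1033 and 1003, 0.17 ± 0.04, adjusted p = 0.0341, and 0.346 and 0.0684 without LBD replicate 2 and Kashlid replicate 2).

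Among genes averaging 5 CPM or more, SPINK6, a secreted inhibitor of kallikrein-type serine proteases (chr5:147582357-147594700), had the largest increase. It was at 13.4 and 14.9 CPM in the LBD libraries and 5.67 and 4.40 in the Kashlid libraries, and the SUN2KO and WT libraries (2.54 and 2.69, 5.94 and 5.34) lay with Kashlid. LBD was thus the one group with a high level, 2.81-fold above Kashlid (1.49 ± 0.17, adjusted p = 0.000102, edgeR's quasi-likelihood test). IL7R, the receptor chain for interleukin-7 (chr5:35856977-35879705), was at 37.5 and 48.1 CPM in LBD and 24.7 and 26.0 in Kashlid, with SUN2KO (15.1 and 13.8) and WT (17.8 and 19.0) below both. Its change was 0.75 ± 0.11 (adjusted p = 0.000592). DKK1, a secreted antagonist of Wnt signalling (chr10:54074041-54077417), stood at 10.0 and 11.1 CPM against 5.61 and 5.98, 1.82-fold higher in LBD (0.86 ± 0.14, adjusted p = 0.00156). Both truncation lines were far below SUN2KO (34.3 and 39.8) and WT (35.3 and 35.3) for this gene, so the difference between them was a small step at the bottom of its range. GREM1, a secreted antagonist of bone morphogenetic proteins (chr15:33010205-33026870), was at 13.6 and 14.8 against 8.90 and 7.86 CPM (0.76 ± 0.13, adjusted p = 0.00259). SLC12A3, a sodium-chloride cotransporter (chr16:56899119-56949762), was at 21.9 and 24.9 against 13.6 and 14.3 (0.75 ± 0.11, adjusted p = 0.00077), and NAV3, a microtubule-binding neuron navigator (chr12:78225069-78606792), at 9.49 and 9.09 against 5.38 and 4.40 (0.92 ± 0.17, adjusted p = 0.00463). These 6 genes were called without any 1 library.

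The other 6 of the 12 largest increases were at low levels, from a mean of 6.53 ± 0.319 CPM in LBD for ALPK2 to 11.9 ± 0.361 for SECTM1 (SD, n = 2). They were the short-chain dehydrogenase DHRS2 (0.84 ± 0.18), SH3TC2 (0.79 ± 0.20), the kinase ALPK2 (0.79 ± 0.19), the oxidative stress-induced OSGIN1 (0.78 ± 0.18), the secreted and transmembrane protein SECTM1 (0.76 ± 0.20) and FRMD3 (0.73 ± 0.15), with adjusted p between 0.00961 and 0.0432 in edgeR. Their calls were less firm. DHRS2 missed the threshold without either LBD library (0.0798 and 0.0701), FRMD3 without LBD replicate 2 (0.111) or Kashlid replicate 1 (0.0751), and SH3TC2, ALPK2, OSGIN1 and SECTM1 without either LBD library or Kashlid replicate 1, with adjusted p up to 0.266. SECTM1 was also at 0.0508 with library size only.

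EGR1, an immediate early zinc finger transcription factor that serum and growth factors induce, had the largest decrease among genes averaging 5 CPM or more. Its promoter and that of DUSP1, a phosphatase that switches off MAP kinases and is also an immediate early gene, are shown because these are the members of their list that were called and had a promoter in the reference table. The sequences are the 250 bases before the transcription start, 5′ to 3′ on the gene's strand, from RefSeq on GRCh38.p14: chr5:138465229-138465478 for EGR1 (plus strand) and chr5:172771196-172771445 for DUSP1 (minus strand). Capitals mark the CArG box, the binding motif of serum response factor, and TGACG in either direction, the core of the cAMP response element bound by CREB and ATF proteins.
EGR1: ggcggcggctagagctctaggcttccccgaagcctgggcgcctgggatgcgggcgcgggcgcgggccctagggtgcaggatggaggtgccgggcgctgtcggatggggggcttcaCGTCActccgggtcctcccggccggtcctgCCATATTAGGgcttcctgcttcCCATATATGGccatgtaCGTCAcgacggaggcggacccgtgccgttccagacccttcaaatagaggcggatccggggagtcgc
DUSP1: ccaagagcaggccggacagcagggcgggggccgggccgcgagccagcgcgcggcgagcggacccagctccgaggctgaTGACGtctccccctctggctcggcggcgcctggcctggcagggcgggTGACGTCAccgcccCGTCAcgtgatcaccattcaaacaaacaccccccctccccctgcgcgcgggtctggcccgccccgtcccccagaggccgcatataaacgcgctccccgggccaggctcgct
EGR1 held 2 CArG boxes, starting 105 and 83 bases before the start site, and 2 TGACG cores. DUSP1 held 4 TGACG cores, of which 2 overlap in 1 full TGACGTCA element. Within the 250 bases and on both strands, 1.14% of the 27305 promoters in the table held a CArG box, 21.7% held TGACG and 1.77% held TGACGTCA. Of the promoters of tested genes 2.86% held TGACGTCA, against 9 of 144 (6.25%) of those of genes lower in LBD and 1 of 172 (0.581%) of those of genes higher in LBD. A CArG box was in 1.39% of the promoters of genes lower in LBD, 1.74% of those higher in LBD and 0.917% of those tested. A match describes these letters and is not a measured binding site.

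The level of EGR1 (chr5:137801181-137805004 on hg19) was 10.1 and 10.1 CPM in LBD and 32.3 and 18.4 in Kashlid, and it was 25.4 and 21.8 in SUN2KO and 3.57 and 2.33 in WT. LBD thus lay below both Kashlid and SUN2KO and above WT, without overlap, and Kashlid replicate 1 was the highest library of all 8. The decrease was 2.51-fold (-1.33 ± 0.19, adjusted p = 0.000613, edgeR), and it was called without any 1 library. NR4A2, an orphan nuclear receptor of the immediate early class (chr2:157180944-157189287), was at 21.6 and 23.6 CPM in LBD against 50.8 and 30.6 in Kashlid (-0.85 ± 0.15, adjusted p = 0.00392). Here too Kashlid replicate 1 stood above replicate 2, and LBD was within the range of SUN2KO (25.6 and 21.5) and below WT (25.7 and 27.6). The call was lost without Kashlid replicate 1 (-0.44, adjusted p = 0.0564) and without LBD replicate 1 (0.0661). DUSP1 was at 147 and 145 CPM against 254 and 154 (-0.48 ± 0.13, adjusted p = 0.0428), a difference carried by Kashlid replicate 1. Without that library it was -0.08 (adjusted p = 0.666), it was not called without either LBD library, and DESeq2 did not call it (0.301).

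TXNIP, the thioredoxin-interacting protein that restrains glucose uptake (chr1:145438438-145442628), had the second largest decrease among genes averaging 5 CPM or more, and the same dependence. It was at 136 and 159 CPM in LBD and 404 and 179 in Kashlid, so Kashlid replicate 1 alone was far from the other 3 libraries. Its change was -0.98 ± 0.20 (adjusted p = 0.0104, edgeR). Without Kashlid replicate 1 it was -0.28 (adjusted p = 0.142), without LBD replicate 1 or 2 it missed the threshold (0.141 and 0.0582), and DESeq2 gave 0.17. By contrast, TNNT1, the slow skeletal muscle troponin T (chr19:55644066-55660722), was even within groups: 10.99 and 11.8 CPM in LBD against 21.4 and 20.9 in Kashlid (-0.89 ± 0.15, adjusted p = 0.00214), and SUN2KO (7.47 and 9.13) and WT (3.09 and 5.11) were lower still. SEMA6B, a transmembrane semaphorin (chr19:4542600-4559771), was at 15.8 and 17.4 against 27.0 and 28.4 CPM (-0.74 ± 0.11, adjusted p = 0.0012). TNNT1 and SEMA6B were called without any 1 library.

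Of the remaining 8 of the 12 largest decreases, DPM3, a subunit of dolichol-phosphate mannose synthase (-0.91 ± 0.18), STARD9, a kinesin of the mitotic spindle (-0.74 ± 0.13), and the vesicle GTPase RAB26 (-0.66 ± 0.14) were called in 3 of the 4 fits that left out a library. DPM3 lost its call without LBD replicate 1 (adjusted p = 0.107), STARD9 without LBD replicate 2 (0.0606) and RAB26 without LBD replicate 1 (0.165). FRAT1, an activator of Wnt signalling (-0.80 ± 0.19), the dynein assembly factor DNAAF3 (-0.78 ± 0.18), the uronyl sulfotransferase UST (-0.77 ± 0.18) and the microfibril protein MFAP2 (-0.64 ± 0.15) were called in the fit without Kashlid replicate 2 and lost in each of the other 3, where adjusted p reached 0.295. Adjusted p in the fit of all libraries was between 0.00392 and 0.0244 for these 7 genes. NR4A2, given above, is the eighth. The plot of the largest changes shows each library.

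**Figure D2:**
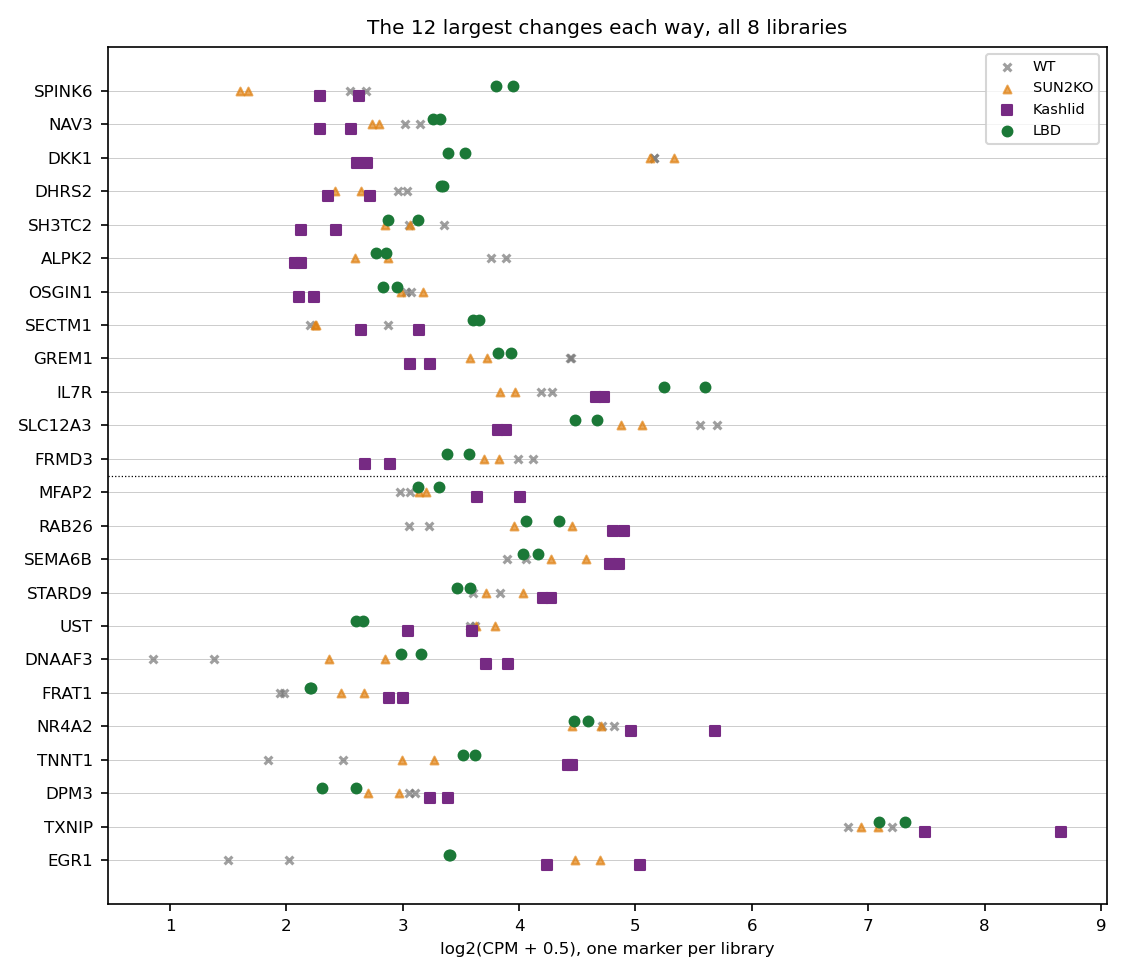
Level of the 24 genes with the largest changes at a mean of at least 5 CPM, as log2(CPM + 0.5) on the horizontal axis, with 1 marker per library of WT, SUN2KO, Kashlid and LBD. The upper 12 genes were called higher and the lower 12 lower in LBD, the LBD and Kashlid markers do not overlap in any of them, and the wide gap between the Kashlid markers of TXNIP, NR4A2 and EGR1 is that between 404 and 179, 50.8 and 30.6 and 32.3 and 18.4 CPM.

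Integrins, the receptors that join the matrix to the actin cytoskeleton, differed together between the lines. All 13 tested integrin genes had a positive change, 7 of them were called higher in LBD and 0 lower, and their median log2 change was 0.255. Over all tested genes the median was -0.00565, with 48.4% positive and 1.63% called higher. ITGA1, a collagen-binding subunit (chr5:52084136-52249485), was at 121 and 119.7 CPM in LBD against 96.8 and 93.0 in Kashlid (0.35 ± 0.06, adjusted p = 0.00268, edgeR), with no overlap and narrow pairs. ITGA2, the neighbouring collagen receptor gene (chr5:52285156-52390609), was at 275 and 336 against 255 and 233 (0.33 ± 0.08, 0.0209), and ITGB4, the hemidesmosomal partner of ITGA6 (chr17:73720776-73753899), at 243 and 316 against 218 and 226 (0.33 ± 0.08, 0.0257). In both of these LBD replicate 2 was well above replicate 1. ITGA2 and ITGB4 lost their calls without LBD replicate 2 (adjusted p = 0.323 and 0.414) and in DESeq2 (0.115 and 0.164), and ITGB4 also without Kashlid replicate 1 (0.0679). The other 4 called subunits, named after their values were seen, were ITGB5 (0.30 ± 0.05), ITGA3 (0.26 ± 0.05), the fibronectin receptor subunit ITGA5 (0.26 ± 0.06) and the common subunit ITGB1 (0.18 ± 0.05, 529 ± 6.78 against 468 ± 22.2 CPM, SD, n = 2). The number of integrins called was 5 without LBD replicate 1, 2 without LBD replicate 2, 5 and 6 without Kashlid replicate 1 and 2, and 4 in DESeq2. The median stayed between 0.192 and 0.291 in these leave-one-out fits.

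Of the 18 proteins that build adhesions inside the cell, 3 were called higher and 0 lower, at a median of 0.06. Of all tested genes 1.63% were called higher. TNS4, a tensin that binds the integrin tail, was at 109 and 114 CPM against 79.2 and 78.1 (0.51 ± 0.07, adjusted p = 0.000271), called without any 1 library. PXN, the scaffold paxillin (0.24 ± 0.05), and KANK1 (0.31 ± 0.07), which links adhesions to microtubules, were the others, named after their values were seen. Without either LBD library 1 of the 3 was called. The genes for talin (TLN1, 0.01 ± 0.05), kindlin-2 (FERMT2, 0.01 ± 0.06) and focal adhesion kinase (PTK2, 0.05 ± 0.06) were not called. Of 25 actin genes and targets of serum response factor, 3 were called higher and 0 lower, at a median of 0.09, with 1 higher without LBD replicate 1 and 7 without Kashlid replicate 2. They were the crosslinker ACTN1 (367 and 375 against 277 and 307 CPM, 0.34 ± 0.05, 0.00077), cytoplasmic actin ACTB (4058 and 3964 against 3329 and 3541 CPM, 0.22 ± 0.04, 0.00408) and filamin FLNA (0.14 ± 0.04, 0.0487). ACTN1 was called without any 1 library. ACTB was lost without LBD replicate 1 (0.0528), and FLNA without either LBD library or Kashlid replicate 1 and with the stricter filter (0.0515). MYH9, the heavy chain of non-muscle myosin IIA, was called at 0.17 ± 0.04 (0.0306, and 0.0624, 0.232 and 0.114 without LBD replicate 1, LBD replicate 2 and Kashlid replicate 1), the 1 called gene of 17 in the myosin II list. Of 24 targets of the mechanosensitive co-activators YAP and TAZ, 1 was called, NT5E, the ecto-5′-nucleotidase CD73. It was at 47.9 and 57.8 CPM against 31.8 and 33.5 (0.69 ± 0.11, 0.00142), also above SUN2KO (20.5 and 17.9) and WT (23.6 and 31.1), and was called without any 1 library. The median of the YAP/TAZ list was 0.04, and 4.17% of its genes were called, against 2.91% of all tested genes. Of 13 caveola and channel genes 1 was called higher, the cavin PRKCDBP (0.49 ± 0.11, 0.0179, and 0.303 without LBD replicate 2 and 0.107 without Kashlid replicate 1).

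Genes that act outside the cell on the matrix were also higher in LBD where called. Of 28 matrix proteases and inhibitors 7 were called higher and 0 lower, against 1.63% and 1.28% of all tested genes. Among them were 4 of 6 genes of the plasminogen system and 2 of 5 metalloprotease inhibitors. Without LBD replicate 2, 3 of the 28 and 1 of the 6 were called, and without each of the other libraries 5 or 6 and 3. SERPINE2, the protease nexin that blocks thrombin and urokinase (chr2:224839765-224904036), was at 165 and 189 CPM in LBD against 124 and 121 in Kashlid (0.53 ± 0.07, adjusted p = 0.000271, edgeR), and WT was higher than both (252 and 262). TIMP3, a matrix-bound metalloprotease inhibitor, was at 85.0 and 86.2 against 62.8 and 68.3 (0.38 ± 0.06, 0.00214). SERPINE2 and TIMP3 were called without any 1 library. The metalloprotease ADAM12 was at 29.8 and 35.0 against 23.1 and 24.8 (0.44 ± 0.10, 0.0196, but 0.235 without LBD replicate 2 and 0.104 without Kashlid replicate 1), and it was the 1 called of 17 metalloproteases. Also called, and named after their values were seen, were the inhibitor TIMP2 (0.31 ± 0.05), the urokinase receptor PLAUR (0.32 ± 0.08) and the serpin SERPINB5 (0.26 ± 0.06). SERPINE2, TIMP2 and TIMP3 code for inhibitors rather than proteases. In the matrix list 4 of 45 were called higher and 0 lower: the basement membrane protein NID2 (235 and 235 against 171 and 178 CPM, 0.43 ± 0.06, 0.000326), fibrillin FBN1 (458 and 455 against 367 and 379, 0.29 ± 0.04, 0.000904), tenascin TNC (0.32 ± 0.08, 0.0262) and the laminin chain LAMB3 (0.25 ± 0.06, 0.0161). NID2 and FBN1 were called without any 1 library. TNC was lost without either LBD library or Kashlid replicate 1 and LAMB3 without LBD replicate 2 (0.254). Of the 16 tested collagens 0 were called by edgeR's quasi-likelihood test, 8 were at an unadjusted p under 0.05 and DESeq2 called 1, and their median was -0.09.

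Of 14 keratins, the intermediate filament proteins of epithelia, and epithelial factors 5 were called higher in LBD and 0 lower. Of all tested genes 1.63% were called higher. In this group 11 had a positive change and the median was 0.083. By contrast, 1 of 18 junction genes was called higher (JUP, plakoglobin, 0.16 ± 0.04, named after its value was seen). KRT81 (chr12:52679697-52685299) was at 203 and 222 CPM against 152 and 138 (0.55 ± 0.06, adjusted p = 3.1e-05, edgeR), KRT7 (chr12:52626954-52642709) at 608 and 658 against 469 and 468 (0.43 ± 0.06, 0.000592), and KRT8 at 1347 and 1319.6 against 1056 and 1181 (0.25 ± 0.05, 0.00341). In all 3 the groups were apart, and the calls were made without any 1 library. KRT17, at 154 and 179 against 123 and 136 (0.36 ± 0.07, 0.00462), lost its call without LBD replicate 2 (0.119). KRT80 (0.22 ± 0.06, 0.0311) was the fifth, named after its value was seen. Related keratins with similar sequences may share reads with KRT81. KRT8 is also on the list of luminal breast markers, where it was the 1 called of 13. The summed level of that list, given above, moved with the keratins, and its part in the result was not tested. Of the mesenchymal factors 1 of 20 was called, the calcium-binding S100A4, which was lower (285 and 289 against 330.2 and 331 CPM, -0.20 ± 0.04, 0.0129, and 0.125 and 0.0713 without LBD replicate 1 and 2). Of the 17 marker genes of the cell line itself, CD44 (407 and 420.5 against 343 and 334 CPM, 0.29 ± 0.05, 0.00214), the membrane linker MSN (0.23 ± 0.05, 0.0171) and ANXA1 (0.20 ± 0.04, 0.0142) were called higher, and S100A4, which is on this list too, was the 1 called lower. The number higher was 1 without either LBD library, 2 without Kashlid replicate 1 and 5 without Kashlid replicate 2. CD44 was called without any 1 library, and MSN and ANXA1 were called in 1 of those 4 fits, that without Kashlid replicate 2. The share of called members in each list is drawn in the bar plot of gene lists.

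**Figure D3:**
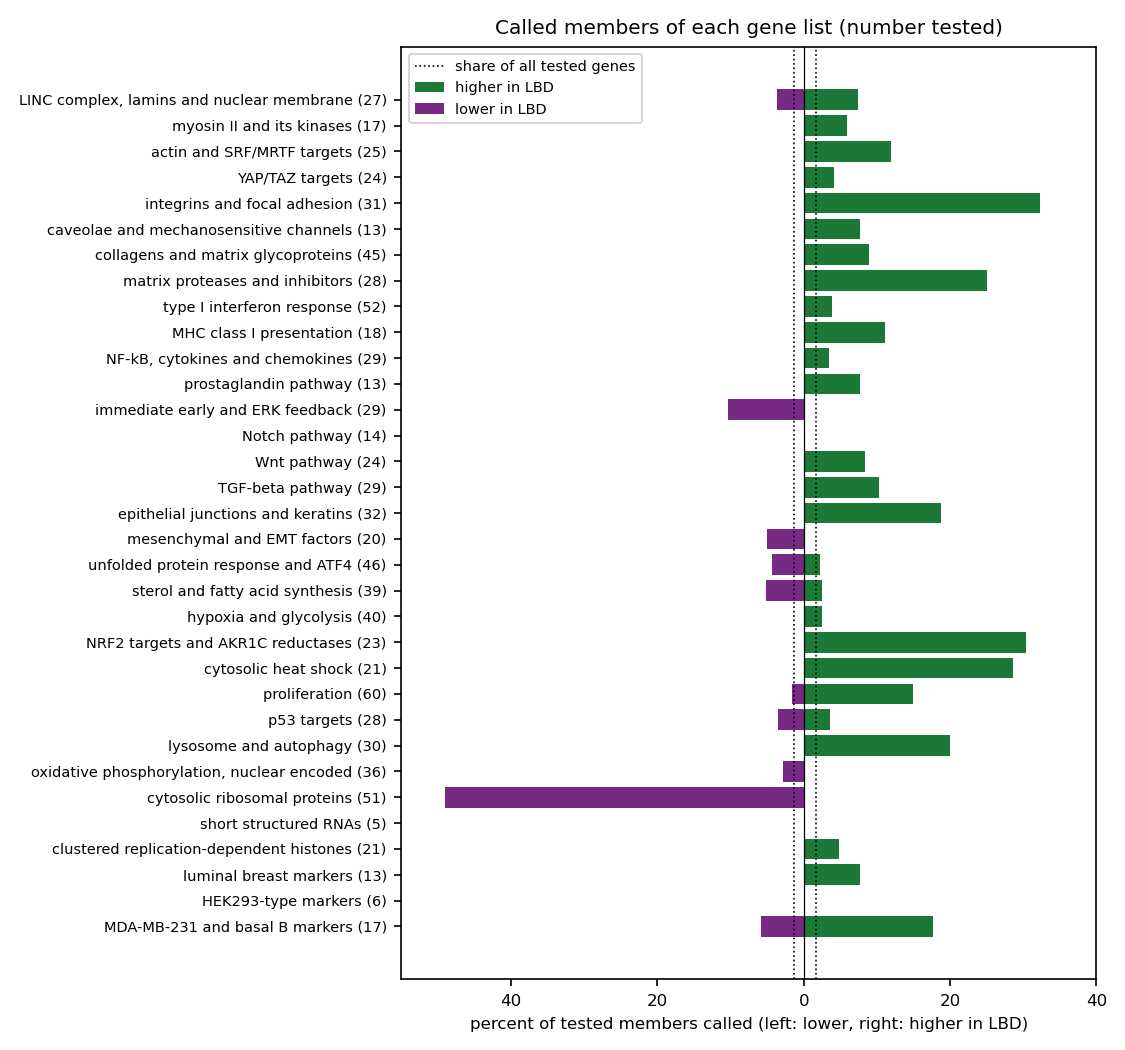
Percent of the tested members of each of 33 gene lists that were called higher (green, to the right) or lower (purple, to the left) in LBD than in Kashlid, with the number tested in brackets. Dotted lines mark the shares over all tested genes, 1.63% higher and 1.28% lower, and the longest bars are the 25 of 51 ribosomal protein genes lower in LBD and the 10 of 31 integrin and focal adhesion genes higher in LBD.

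A lysosomal protease had the smallest adjusted p of the comparison. CTSD, cathepsin D, the main aspartic protease of lysosomes (chr11:1773982-1785222), was at 548 and 553 CPM in LBD and 389.7 and 414 in Kashlid (0.45 ± 0.04, adjusted p = 1.49e-05, edgeR). The LBD libraries differed by little and lay far above both Kashlid libraries, although SUN2KO (608 and 588) and WT (854 and 848) were higher than both. CTSL, a cysteine cathepsin, was at 182 and 172 against 142 and 145 (0.30 ± 0.05, 0.00259, and 0.0535 without LBD replicate 1). CTSS was called at 0.73 ± 0.19 (0.0374) but was lost in 3 of the 4 fits without 1 library. Of 30 lysosome and autophagy genes 6 were called higher and 0 lower, at a median of 0.08, against 1.63% of all tested genes called higher. The number higher was 2 without LBD replicate 1, 3 without LBD replicate 2, 5 without Kashlid replicate 1 and 7 without Kashlid replicate 2, where 1 was lower. Also called, and named after their values were seen, were CTSB (0.20 ± 0.05) and the autophagy receptor SQSTM1 (0.28 ± 0.05).

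Targets of NRF2, the transcription factor of the oxidative stress response, and the related aldo-keto reductases had 7 of 23 called higher and 0 lower, at a median of 0.12. Of all tested genes 1.63% were called higher. Within the 250 bases before the start, the antioxidant response core, TGACNNNGC, was in 0 of 6 promoters of called members. It was in 4 of 18 promoters of tested members and in 12.2% of those of all tested genes. AKR1C2 was at 24.9 and 24.3 CPM against 14.3 and 16.5 (0.67 ± 0.12, 0.00309), AKR1C1 at 19.2 and 16.5 against 11.04 and 12.4 (0.61 ± 0.13, 0.0128) and AKR1C3 at 88.0 and 81.7 against 60.7 and 66.0 (0.42 ± 0.07, 0.00307) (adjusted p, edgeR). These reductases act on steroids and prostaglandins, lie side by side on chromosome 10 and are close in sequence, so reads may be shared between them and the values are not independent. AKR1C2 was called without any 1 library. AKR1C1 was lost without LBD replicate 1 (0.173) and Kashlid replicate 1 (0.0818), and AKR1C3 without LBD replicate 1 (0.0602). OSGIN1, given above, was the fourth by size. AKR1B1 (0.34 ± 0.05), the ferritin heavy chain FTH1 (0.19 ± 0.03) and the quinone reductase NQO1 (0.21 ± 0.06) were also called, and are named after their values were seen. The number called ran from 3 without LBD replicate 1 to 10 without Kashlid replicate 2, where 1 was lower.

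Cytosolic chaperones, which refold proteins and are induced by heat shock factor, had 6 of 21 called higher and 0 lower, with 19 positive and a median of 0.16. Of all tested genes 1.63% were called higher. The promoters of HSPA8, the constitutive HSP70, and HSPB8, a small heat shock protein, are shown because their called members held the core of the heat shock element, and both were chosen after their values were seen. They are the 250 bases before the start site from RefSeq on GRCh38.p14, chr11:123062137-123062386 (minus strand) and chr12:119178681-119178930 (plus strand), 5′ to 3′ on the gene's strand, and capitals mark GAANNTTC, a motif that reads the same on both strands.
HSPA8: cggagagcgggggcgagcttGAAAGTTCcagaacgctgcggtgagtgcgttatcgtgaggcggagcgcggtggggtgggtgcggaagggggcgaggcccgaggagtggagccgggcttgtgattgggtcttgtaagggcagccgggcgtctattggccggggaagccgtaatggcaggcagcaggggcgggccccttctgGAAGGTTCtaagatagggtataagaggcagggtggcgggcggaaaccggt
HSPB8: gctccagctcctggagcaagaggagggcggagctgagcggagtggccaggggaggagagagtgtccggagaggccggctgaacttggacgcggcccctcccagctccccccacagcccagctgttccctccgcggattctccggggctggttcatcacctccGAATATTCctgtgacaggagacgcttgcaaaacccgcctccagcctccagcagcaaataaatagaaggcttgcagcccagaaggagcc
HSPA8 held 2 such cores, starting 230 and 50 bases before the start site, and HSPB8 held 1, at 88. The motif was present in 4 of the 6 promoters of called chaperones, in 8 of 20 of tested ones with a promoter in the table, and in 5.85% of all promoters. It was in 3.94% of the promoters of tested genes, 8.14% of those of genes higher in LBD and 5.56% of those lower. HSPB8 was at 45.9 and 37.5 CPM in LBD against 29.6 and 32.8 in Kashlid (0.42 ± 0.09, adjusted p = 0.015, edgeR). HSPA1A was at 906 and 883 against 603 and 775 (0.38 ± 0.09, 0.02) and its near-identical neighbour HSPA1B at 862 and 863 against 596 and 752 (0.36 ± 0.08, 0.0182), and their reads may be shared. Both encode the inducible HSP70, and in both Kashlid replicate 1 was the low library while Kashlid replicate 2 was closer to LBD. DESeq2 called neither HSPA1A nor HSPA1B (adjusted p = 0.203 and 0.179). The co-chaperone BAG3 was at 70.2 and 78.0 against 54.8 and 61.9 (0.35 ± 0.09, 0.0309). HSPA8 (0.28 ± 0.07, 0.0435) and HSP90AB1 (0.18 ± 0.05, 0.0488), named after their values were seen, complete the called ones. The count rested on single libraries: it was 0 without LBD replicate 1, 1 without LBD replicate 2, 0 without Kashlid replicate 1 and 12 without Kashlid replicate 2. The median stayed positive in these fits, between 0.122 and 0.207. The median level of the 21 genes was taken as log2 deviation from the mean of the 4 truncation libraries. It was 0.243 and 0.0888 in WT, 0.17 and 0.114 in SUN2KO, 0.12 and 0.0381 in LBD and -0.152 and -0.018 in Kashlid. Kashlid was thus the lowest of the 4 groups.

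Mitotic genes, set beside the 1.63% of all tested genes called higher and 1.28% called lower, behaved in the same way. Of 33, 8 were called higher and 0 lower, with 29 positive and a median of 0.14, among them the kinesin KIF20A of cytokinesis (119 and 116 CPM against 89.6 and 99.0, 0.31 ± 0.06, adjusted p = 0.00605), HMMR (0.30 ± 0.07, 0.0253) and cyclin A2, CCNA2 (0.26 ± 0.06, 0.0231). Called genes numbered 0 without LBD replicate 1, 1 without LBD replicate 2, 1 without Kashlid replicate 1 and 14 without Kashlid replicate 2. DNA replication genes did not share the direction: of 27, 1 was higher (cyclin D1, CCND1, 0.25 ± 0.05, named after its value was seen) and 1 lower (the transcription factor E2F1, 40.8 and 41.9 against 53.1 and 49.0 CPM, -0.31 ± 0.08, 0.0309, lost without either LBD library or Kashlid replicate 1), at a median of -0.04. Of 28 targets of p53, PLK2 was called higher (0.35 ± 0.09, 0.0334) and CCNG1 lower (-0.23 ± 0.06, 0.0343). PLK2 was lost without any 1 library, and CCNG1 without any but Kashlid replicate 2.

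Ribosomal protein genes were lower in LBD than in Kashlid, where 1.28% of all tested genes were called lower. Of the 51 listed, 25 were called lower and 0 higher, 1 had a positive change, and the median log2 change was -0.16, a small shift of highly expressed genes. RPS18 was at 991 and 1004 CPM in LBD and 1184 and 1181 in Kashlid (-0.24 ± 0.04, adjusted p = 0.00133, edgeR), RPL3 at 1624 and 1691 and 1951 and 1925 (-0.23 ± 0.04, 0.00156), RPL32 at 557 and 575 and 670.1 and 661 (-0.23 ± 0.04, 0.00338) and RPS12 at 483 and 500.0 and 593 and 584 (-0.26 ± 0.05, 0.00295). Replicates of both groups lay close together in all 4 genes, and SUN2KO lay between LBD and Kashlid in RPS18 (1109 and 1081), RPL32 (641 and 629.9) and RPS12 (568 and 576). The median level of the 51 genes was taken as log2 deviation from the mean of the 4 truncation libraries. It was -0.1 and -0.128 in WT, -0.076 and -0.0587 in LBD, 0.0668 and 0.0434 in SUN2KO and 0.0631 and 0.0881 in Kashlid. WT was thus below LBD. RPS18 and RPL3 were called without any 1 library, and RPL32 and RPS12 without any but LBD replicate 1 (adjusted p = 0.0606 and 0.0574). The number of ribosomal genes called lower was 3 without LBD replicate 1, 12 without LBD replicate 2, 22 without Kashlid replicate 1 and 19 without Kashlid replicate 2, and 5 in a fit of the 4 truncation libraries alone. The median stayed between -0.164 and -0.129. Pseudogene copies may share reads with these genes. The list also serves as a sign of RNA quality, together with short structured RNAs, which poly(A) selection and RNA integrity affect. RPPH1 and RMRP, the RNA components of RNase P and RNase MRP, were high in replicate 2 of both lines: RPPH1 at 0.231 and 10.2 CPM in LBD and 0.347 and 43.6 in Kashlid, and RMRP at 0.463 and 10.8 and 0.405 and 31.4. These differences lay between replicates, and neither RNA was called between the lines in the fit of all libraries. With the replicate number as a block both were called lower in LBD (adjusted p = 0.000224 and 0.0152), and the direction depended on which library was left out. The Spearman correlation of log2 change with transcript length over 10027 genes was 0.01 between the lines, -0.08 between LBD replicates 2 and 1 and -0.10 between Kashlid replicates 2 and 1, as descriptions across genes of the same libraries. The part of RNA quality in the ribosomal difference was not tested.

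Targets of ATF4, the transcription factor of the amino acid and integrated stress response, had a negative median log2 change, -0.255 over 24 genes, and 2 of them were called lower: ATF4 itself (268 and 258 CPM against 364 and 321, -0.38 ± 0.08, adjusted p = 0.0106) and the mTOR inhibitor DDIT4 (-0.25 ± 0.06, 0.0231), neither by DESeq2 (0.11 and 0.144). Of all tested genes 1.28% were called lower. Kashlid replicate 1 was the library apart. The median level of these 24 genes, as log2 deviation from the mean of the 4 libraries, was 0.312 in Kashlid replicate 1, -0.116 in Kashlid replicate 2, and -0.10 and -0.12 in LBD. Without Kashlid replicate 1, 2 were called higher, 0 lower, and the median turned to 0.03. Without Kashlid replicate 2, 19 were called lower, at -0.45. The difference between the Kashlid replicates was thus larger than that between the lines for this group. The 17 listed immediate early transcription factors had the same split, at 0.251 and -0.11 in the Kashlid libraries and -0.168 and 0.025 in LBD. Of these, 2 were called lower, EGR1 and MYC (479 and 465 CPM against 624 and 530.4, -0.29 ± 0.06, 0.0097, with a change of -0.17 without Kashlid replicate 1). NR4A2, given above, is not on this list. For the listed factors the median ran from -0.285 to 0.0474 in the fits without 1 library, and was positive without Kashlid replicate 1. The plot of gene groups by library shows these patterns side by side.

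**Figure D4:**
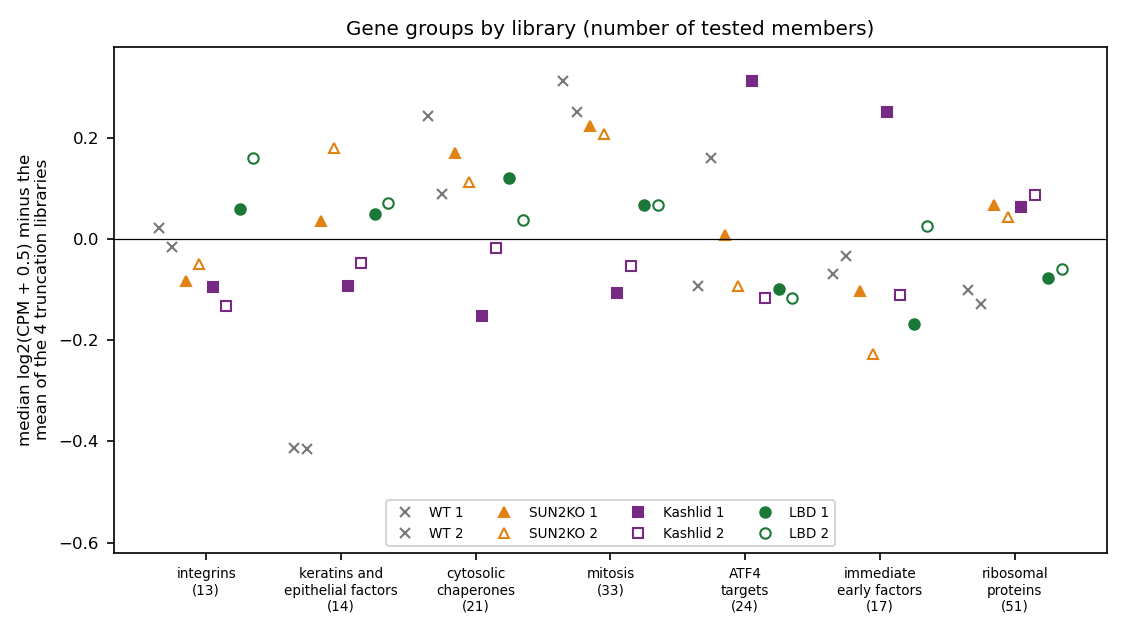
Median over the tested members of 7 gene groups of log2(CPM + 0.5) minus the gene's mean over the 4 truncation libraries (vertical axis), with 1 marker per library and filled or open markers for replicate 1 or 2 of SUN2KO, Kashlid and LBD. In integrins, keratins, mitosis and ribosomal proteins both LBD libraries lie on one side of both Kashlid libraries, while ATF4 targets and immediate early factors are high in Kashlid replicate 1 (0.312 and 0.251) and not in Kashlid replicate 2.

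In each signalling list 3 genes or fewer were called. The share called was 3.85% in the type I interferon list and 3.45% in the NF-kB and cytokine list, near the 2.91% of all tested genes. It was higher in the MHC class I (11.1%), TGF-beta (10.3%), Wnt (8.33%) and prostaglandin (7.69%) lists, each with 1 to 3 called genes. Of 52 genes of the type I interferon response 2 were called higher, the antiviral synthetases OAS1 (59.8 and 63.4 CPM against 48.8 and 47.4, 0.36 ± 0.08, adjusted p = 0.0212) and OAS3 (0.28 ± 0.06, 0.00748), at a median of 0.03 for the list. OAS1 was lost without LBD replicate 1 (0.073) and replicate 2 (0.173), and OAS3 without LBD replicate 1 (0.0888). Of 18 MHC class I genes the classical antigen-presenting HLA-B (256 and 278 against 202 and 214 CPM, 0.36 ± 0.05, 0.000788) and HLA-C (0.26 ± 0.05, 0.00792, and 0.16 without LBD replicate 2) were called higher, and similar HLA genes may share their reads. ICAM1, the ligand of leukocyte integrins, was the 1 called of 29 NF-kB and cytokine genes (69.9 and 70.1 against 54.9 and 52.8 CPM, 0.38 ± 0.07, 0.00295), and PTGS1, the constitutive cyclooxygenase, the 1 of 13 prostaglandin genes (79.8 and 88.2 against 58.7 and 58.8, 0.52 ± 0.09, 0.00215). HLA-B, ICAM1 and PTGS1 were called without any 1 library. In the Wnt list DKK1 and WNT7B, a Wnt ligand (23.6 and 20.9 against 17.0 and 15.5, 0.45 ± 0.11, 0.0237, and 0.221 and 0.0766 without LBD replicate 1 and Kashlid replicate 2), were called of 24. In the TGF-beta and BMP list 3 of 29 were called higher and 0 lower (3 lower without Kashlid replicate 2): GREM1, and the BMP targets ID1 (222 and 242 against 169 and 166, 0.47 ± 0.05, 0.000102) and ID2 (2.49 and 2.33 against 1.21 and 0.997, 1.12 ± 0.29, 0.0383). GREM1 is an antagonist and ID1 a target of the same pathway, and ID1 was called without any 1 library, whereas ID2, at low levels, was called in 0 of the 4. Of 14 Notch genes 0 were called by edgeR's quasi-likelihood test and 0 by DESeq2, and 2 were at an unadjusted p under 0.05, with LFNG (0.40 ± 0.13, adjusted p = 0.105) and RFNG (-0.27 ± 0.12, 0.261), both glycosyltransferases that modify Notch, at the smallest p.

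In metabolism, 1 of 40 hypoxia and glycolysis genes was called, pyruvate kinase PKM (0.18 ± 0.04, adjusted p = 0.0179, edgeR), and 1 of 36 nuclear-encoded subunits of oxidative phosphorylation, COX5B (-0.20 ± 0.05, 0.0479, and 0.0529 with median-ratio factors). These shares, 2.5% and 2.78%, were near the 2.91% of all tested genes. Of 39 genes of lipid synthesis, the acyl-CoA synthetase ACSL1 (11.7 and 10.3 CPM against 16.6 and 14.6, -0.50 ± 0.12, 0.0261) and the desaturase FADS1 (-0.22 ± 0.05, 0.0334) were called lower. The chaperone HYOU1 was the 1 called of 22 genes of the unfolded protein response in the endoplasmic reticulum (348 and 331 against 281 and 293, 0.24 ± 0.05, 0.0084, and 0.118 without LBD replicate 1). PKM, COX5B, ACSL1 and FADS1 were each lost in at least 2 of the 4 fits without 1 library. Of 21 clustered histone genes HIST1H2BK was called higher (145 and 149 against 117 and 121, 0.31 ± 0.06, 0.00408, and 0.0571 without LBD replicate 2).

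The called genes were also placed beside the SUN2KO and WT libraries, by mean level. LBD was nearer to SUN2KO than Kashlid was in 262 of the 408 genes (64.2%, against 54.8% of all tested genes), and nearer to WT in 289 (70.8%, against 56.3%). SUN2KO lay between the lines in 185 (45.3%, against 25.4%) and WT in 99 (24.3%, against 15%). Among the genes lower in LBD, such as EGR1 and the ribosomal protein genes, SUN2KO lay between the lines in 104 of 179 (58.1%), and among those higher in LBD in 81 of 229 (35.4%). Over all genes of at least 5 CPM the root mean square log2 difference to the SUN2KO libraries was 0.255 to 0.301 for LBD and 0.283 to 0.31 for Kashlid, ranges that overlap. To the WT libraries it was 0.391 to 0.408 for LBD and 0.418 to 0.434 for Kashlid, ranges that do not overlap. The genes were selected for a difference between the lines, and these shares are descriptions.

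The number of calls also depended on the model. Against 408 genes with all 8 libraries, the 4 truncation libraries alone gave 129 (78 higher and 51 lower), of which 127 were among the 408. The fit of all 8 libraries assumes that the spread of a gene is equal in the 4 groups. The SUN2KO and WT replicates differed less than those of LBD and Kashlid, so its p-values and SE may be too small. DESeq2 called 351, of which 281 were shared, 18 of the 408 missed its threshold, and 109 had no adjusted p there because of its filtering. The bar plot of settings gives the counts in each direction.

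**Figure D5:**
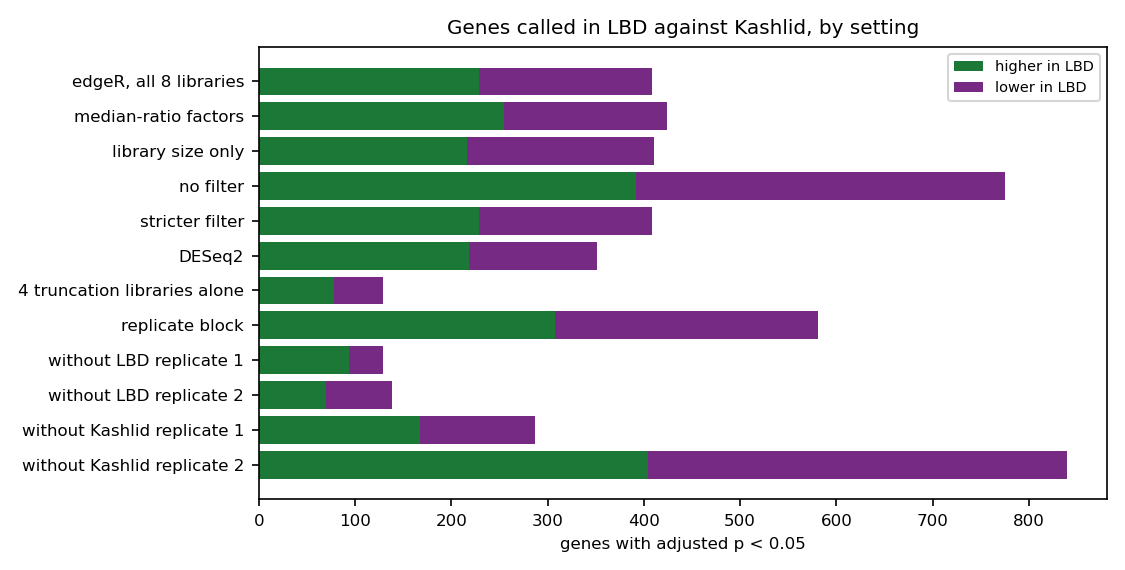
Number of genes with an adjusted p under 0.05 in LBD against Kashlid (horizontal axis) for each analysis setting, split into genes higher (green) and lower (purple) in LBD. Counts run from 129, in the fit of the 4 truncation libraries alone and in that without LBD replicate 1, to 839 without Kashlid replicate 2.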

How the data were processed

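RNA sequencing of 8 libraries was used, 2 for each of the 4 groups. The authors deposited a raw read count for each of 25369 genes. Per the submitters' processing notes, the authors used Trim Galore, STAR 2.7.1a, bedtools 2.24.0, HTSeq and DESeq2, with the hg19 build. Which annotation and strand setting were used is not given in the sources used here. Overlapping genes and close paralogs may share reads. Gene coordinates are other values, copied from a deposited table by the authors whose starts count from 0, so 1 was added. No count entry was without a gene name (0), and 0 count columns went unused.

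Differences were fitted by edgeR 4.0.16 (R 4.3.3). After filterByExpr, which left 14016 genes, libraries were scaled by TMM. All 8 libraries entered 1 quasi-likelihood model with a term for each group and 4 residual degrees of freedom. The two-sided p-values were adjusted by Benjamini-Hochberg over all tested genes. Log2 changes are LBD minus Kashlid, with the fitted SE. CPM are counts scaled to library totals multiplied by the TMM factors. The same-numbered replicates were not treated as pairs.

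The members and gene lists were chosen with earlier results of these data known. Named genes were SUN2, the 12 largest called changes each way whose mean reached 5 CPM, without overlap of the libraries (loci without a product name left out), all SUN proteins, nesprins and lamins, and up to 4 called members of each of 33 lists, or up to 2 with the smallest p where none was called. The fit was also run on simulated counts with 13850 genes and 200 changed ones, drawn from genes above a minimum expected count. It recovered 58% of 1.25-fold, 76% of 1.5-fold, 90% of 2-fold and 100% of 3-fold changes, and 13 of 175 calls were false. The simulation gave each gene the same spread in all groups. In the data the Kashlid replicates differed more than the others, so these rates need not hold for the data. Alternatives were no filter, a stricter filter (at least 5 CPM in at least 2 libraries), median-ratio factors, scaling by library size only, DESeq2 1.42.0, the 4 truncation libraries alone, a replicate block and leaving out each library. Promoters came from RefSeq (GRCh38.p14), with 10037 of 14016 tested genes matched by symbol and searched over 250 bases on both strands. The authors' comparisons with WT were not used here. A few called genes are not reported here by name and remain in the counts.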

Additional observations from a re-analysis of the deposited data

How the results depend on the processing

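Precision is limited by 2 libraries a group and 4 residual degrees of freedom. Against 408 called genes (229 higher and 179 lower in LBD), no filter gave 775 (392 and 383) and the 4 truncation libraries alone 129 (78 and 51). The replicate number as a block gave 581 (308 and 273). The numbers were not taken to pair the samples, because the labels do not say that a replicate number marks a shared batch. The correlation of replicate deviations was over 0.1 in 3 of the 6 pairs of groups. It was 0.19 between Kashlid and LBD, and 0.173 and 0.183 between SUN2KO and these. Between WT and the others it was -0.0461 to 0.0902. Whether same-numbered replicates share a batch was not tested. All 113 called genes that the naming rule took kept their call under the block. Leaving out 1 library gave 129 to 839 genes, 70 to 404 higher and 35 to 435 lower, and the cause of the larger number without Kashlid replicate 2 was not tested. Median-ratio factors (424), library size only (410), the stricter filter (408) and DESeq2 (351) stayed within 1.5 times, and the share called higher was 56.1% as reported, 60.1% with median-ratio factors, 52.7% with library size only and 62.1% in DESeq2. Of these 113 genes, 65 kept their call with the 4 truncation libraries alone, 58 and 60 without LBD replicate 1 and 2, 68 and 108 without Kashlid replicate 1 and 2. DESeq2 gave an adjusted p to 76 of them, of which 68 were called. No called named gene changed sign. RPPH1 and RMRP, not called, ranged from -6.524 to 3.871 and from -5.077 to 3.763 without 1 library. The positive values came without Kashlid replicate 2 (adjusted p = 0.0371 and 0.0274, edgeR), where Kashlid replicate 1, at a low level, was compared with both LBD replicates. Both were called lower without Kashlid replicate 1 (0.000193 and 0.00291), with no filter (1.71e-31 and 2.59e-14) and with the block (0.000224 and 0.0152), and the cause was not tested. The other sign changes were in uncalled genes near 0. SUN1 turned to 0.005329 with median-ratio factors, 0.005345 in DESeq2 and 0.001679 with the 4 libraries alone. SYNE1 turned to 0.005901 with median-ratio factors, 8.04e-05 without a filter, 0.0023 with the 4 libraries alone and 0.00186 with the block. Without 1 library SUN1 ranged from -0.01897 to 0.02, SYNE1 from -0.1689 to 0.1937, SYNE4 from -0.8217 to 0.6141, LMNB1 from -0.05073 to 0.02175 and LMNB2 from -0.02676 to 0.006769.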

Other observations

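The genes and families in this section were chosen after their values were seen, and their counts are descriptions. Of all tested genes 1.63% were called higher and 1.28% lower. Alpha and beta tubulins, the subunits of microtubules, had 6 of 15 tested genes called higher in LBD and 0 lower, at a median log2 change of 0.20. TUBB was at 2208 and 2126 CPM in LBD and 1663 and 1872 in Kashlid (0.29 ± 0.05, adjusted p = 0.00206, edgeR), and it was called without any 1 library. All tubulin genes together took 0.712% and 0.685% of the counts in LBD, 0.555% and 0.621% in Kashlid, 0.748% and 0.722% in SUN2KO and 0.767% and 0.731% in WT, so that Kashlid was the lowest of the 4 groups. The number called higher was 1 without LBD replicate 1, 3 without LBD replicate 2, 2 without Kashlid replicate 1 and 7 without Kashlid replicate 2. Annexins, which bind membranes in the presence of calcium, had 4 of 11 called higher and 0 lower. ANXA2 was at 695.9 and 708.7 CPM in LBD and 549.4 and 561.8 in Kashlid (0.34 ± 0.04, adjusted p = 0.000104), and also held without any 1 library. The number of annexins called was 2 and 1 without LBD replicate 1 and 2, and 2 and 3 without Kashlid replicate 1 and 2.

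Host genes of small nucleolar RNAs (SNHG genes with GAS5 and ZFAS1) had a negative change in all 17 tested, and 4 were called lower. ZFAS1 was at 223 and 215 CPM in LBD and 295 and 244 in Kashlid (-0.30 ± 0.06, adjusted p = 0.0125, edgeR). Kashlid replicate 1 was the highest library, and the number called lower was 0 without it, 8 without Kashlid replicate 2, and 0 and 1 without LBD replicate 1 and 2. The long nuclear RNA NEAT1, which builds paraspeckles, was at 542 and 632 CPM in LBD and 921 and 750.04 in Kashlid (-0.51 ± 0.07, 0.000484). ASS1 and CPS1, enzymes of the urea cycle, and CBS, an enzyme of sulfur amino acid metabolism, were lower as well: ASS1 by -0.31 ± 0.04 (0.000326), CPS1 by -0.25 ± 0.04 (0.00168) and CBS by -0.63 ± 0.11 (0.00214). The long noncoding RNA UCA1 was at 5.44 and 6.04 CPM in LBD and 1.39 and 0.939 in Kashlid (2.29 ± 0.29, 0.000183), with SUN2KO at 4.82 and 6.77 and WT at 0.416 and 0.454. TCN1, a vitamin B12 carrier, was at 5.38 and 5.62 and 1.85 and 1.53 CPM (1.70 ± 0.26, 0.0012). NEAT1, ASS1, CPS1, CBS, UCA1 and TCN1 were called without any 1 library.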
